A study of Mus musculus with 27 samples.

Results

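The proteasome genes of the mouse were followed here across preimplantation embryos in which histone acetylation was disturbed. They were taken from the series-wide count table by symbol: Psma, Psmb, Psmc, Psmd, Psme, Psmf or Psmg followed by a digit, with 5 pseudogene symbols ending in -ps left out. The rule gave 50 of 55367 gene rows, 19 core genes (Psma, Psmb) and 31 regulatory genes. By role these were 7 alpha-ring and 7 beta-ring core subunits, 3 inducible and 2 tissue-restricted core subunits, 6 base ATPases, 3 other base subunits, 8 lid subunits, 5 activator genes, 1 inhibitor, 4 core chaperones and 3 base chaperones. The remaining gene, Psmc3ip, matched the symbol rule but encodes a partner of meiotic recombinases and no part of the proteasome. The rule uses no measured value, though it was set with earlier results of these data known.

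The libraries were 27 pools of 15 to 20 wildtype embryos, cultured in KSOM medium and collected as morulae at E2.75, with 3 pools in each of 9 groups. In the inhibitor family, the medium held Vehicle, SAHA (500 nM) or TSA (50 nM), which block histone deacetylases, or A485 (10 uM), which blocks the acetyltransferases p300 and CBP, from embryonic day 2.5. The siRNA family was injected at embryonic day 0.5 with siControl, with siP300, siKat6a or siKat6b against 1 acetyltransferase gene, or with siComb, whose parts the labels do not give. Nothing in the labels says how embryos were shared out among the pools, so p-values measure the spread between pools, which may be partly technical.

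Library totals lay between 7557591 and 11988857 counts. RNA of the targeted genes checks the siRNA labels only in part. Ep300, which encodes p300, was at 24.0, 24.9 and 30.6 CPM, counts scaled to the size of the library, in siControl and at 17.9, 12.2 and 28.8 CPM in the libraries labelled siP300, which overlapped (adjusted p = 0.259). Kat6a was at 12.9 ± 1.58 CPM (SD, n = 3) in siKat6a against 17.7 ± 1.29 CPM (SD, n = 3) in siControl, and Kat6b at 78.1 ± 6.79 CPM (SD, n = 3) in siKat6b against 115 ± 7.90 CPM (SD, n = 3). Neither passed the test, while in siComb both fell, Kat6a by 0.64 (adjusted p = 0.0220) and Kat6b by 1.03 (adjusted p = 0.00814) on the log2 scale. The second library labelled siP300 stood apart, with a summed core level of 11462 CPM beside 8245 and 7330 CPM. That library, siKat6b 1 and 3 and siComb 2 also held 899 to 990 CPM of the retroviral transcript MERVL-int, against at most 158 CPM in the other siRNA libraries. In the inhibitor family it was at 2180 to 4570 CPM in SAHA, 8390 to 9740 CPM in TSA and at most 245 CPM in Vehicle and A485. Of the morula markers, Sox2 was at 0 in every library and Cdx2 at 0 in A485. The summed level of the 10 markers was 9258 to 10188 CPM in Vehicle, 1875 to 3018 in A485, 11448 to 16529 in siControl, 4593 to 7086 in siP300 and 2909 to 4217 in siComb. Markers of cumulus and oviduct cells summed to at most 8.42 CPM.

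The proteasome degrades proteins that carry ubiquitin chains. Its core particle is a stack of alpha and beta rings, and the beta-ring subunits Psmb5, Psmb6 and Psmb7 hold the cutting sites. A regulatory particle caps the core: its base contains the ATPases that unfold substrates, and its lid contains Psmd14, the enzyme that removes ubiquitin. Under interferon, Psmb8, Psmb9 and Psmb10 replace the standard cutting subunits and form the immunoproteasome, which favours peptides for antigen presentation. Early embryos depend on the proteasome to clear maternal proteins as the embryonic genome takes over.

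The upstream sequences of 4 members are shown because they stand for the lid, the base chaperones and the inducible core, whose values are given library by library below. Psmd13 encodes a lid subunit, Psmd9 a base chaperone, and Psmb9 and Psmb8 inducible core subunits. Each sequence is the 250 bases before the start of the RefSeq transcript on GRCm38.p6, read 5′ to 3′ in the direction of the gene. Capitals mark a match to TGACNNNGC (the antioxidant response element, the motif known for Nfe2l1, the main activator of proteasome genes), CCAAT, the core of the interferon-stimulated response element (ISRE, the letters GAAA repeated after any 2 bases) or TTCNNNGAA (a STAT site). Both strands were searched, and overlapping matches of different motifs were allowed.
Psmd13, chr7:140882144-140882393, plus strand: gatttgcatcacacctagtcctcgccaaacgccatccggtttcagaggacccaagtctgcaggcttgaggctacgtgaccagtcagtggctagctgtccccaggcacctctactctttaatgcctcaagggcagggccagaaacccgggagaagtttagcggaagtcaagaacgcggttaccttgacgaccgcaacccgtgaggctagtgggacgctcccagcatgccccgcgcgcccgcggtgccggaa
Psmd9, chr5:123227940-123228189, plus strand: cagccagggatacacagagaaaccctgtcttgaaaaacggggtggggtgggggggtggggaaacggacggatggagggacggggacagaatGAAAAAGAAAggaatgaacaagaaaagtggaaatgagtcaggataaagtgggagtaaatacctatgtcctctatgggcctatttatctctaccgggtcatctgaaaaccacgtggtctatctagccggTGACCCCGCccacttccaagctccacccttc
Psmb9, chr17:34187331-34187580, minus strand: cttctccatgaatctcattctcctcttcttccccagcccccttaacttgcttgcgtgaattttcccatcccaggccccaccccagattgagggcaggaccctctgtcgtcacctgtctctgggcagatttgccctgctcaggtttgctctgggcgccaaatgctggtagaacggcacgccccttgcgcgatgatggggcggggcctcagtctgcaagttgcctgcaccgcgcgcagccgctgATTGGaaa
Psmb8, chr17:34197945-34198194, plus strand: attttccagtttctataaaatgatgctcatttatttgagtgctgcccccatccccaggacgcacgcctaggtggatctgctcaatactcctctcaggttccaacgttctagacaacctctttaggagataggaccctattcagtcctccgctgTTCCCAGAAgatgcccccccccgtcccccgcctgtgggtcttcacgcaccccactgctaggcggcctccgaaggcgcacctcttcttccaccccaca

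The Psmd13 window held none of the 4 motifs. That of Psmd9 held TGACNNNGC from base -31 and the ISRE core from base -159, that of Psmb9 a CCAAT match on the reverse strand from base -8, and that of Psmb8 a TTCNNNGAA match from base -97. Psmb9 and Tap1, which encodes a peptide transporter of antigen presentation, are divergent neighbours whose RefSeq promoter windows share 275 bases. RefSeq windows of 250 bases before to 50 bases after the start were found for 42 of the 50 members. TGACNNNGC occurred in 6 of these 42 genes (14.3%) and in 14.0% of all 27025 genes of the table, CCAAT in 15 (35.7%) and 41.1%. The ISRE core occurred in 5 (11.9%) and 3.99%, TTCNNNGAA in 3 (7.14%) and 9.55%. The first, second and last of these shares lie near those of all genes, and a match describes letters, not binding.

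In all 9 groups, 30 of the 50 members had a group mean of 100 CPM or more. Psmb5, Psmd3 and Psmd13 are not among the 30, with lowest group means of 91.4, 33.2 and 16.5 CPM, and the chaperones Psmd5 and Psmg2 are. Per kilobase of exon, over all 27 libraries, the 14 constitutive core genes lay between 135 CPM per kb (Psmb7) and 737 (Psmb2, a structural beta subunit), with a median of 292. The 17 base and lid genes lay between 21.3 (Psmd3) and 274 CPM per kb (Psmc1, a base ATPase), with a median of 156. After Psmb2, the highest levels per length were those of Psmb6 (649 CPM per kb) and Psma6 (597 CPM per kb, an alpha-ring subunit). The inducible core genes were at 0.404 (Psmb8), 2.20 (Psmb9) and 11.3 CPM per kb (Psmb10). Psmb11, the thymus subunit, was at 0.0961 CPM per kb and Psma8, the testis subunit, at 1.39. Psme2b had 0 counts in all 27 libraries, which allows up to 0.0111 CPM, a limit for counting error only. The members together took 2.27% ± 0.157 (SD, n = 3) of the counts in Vehicle and 1.58% ± 0.0989 (SD, n = 3) in TSA. They took 1.96% ± 0.0810 (SD, n = 3) in siControl and 1.76% ± 0.290 (SD, n = 3) in siP300. These 2 groups overlapped, since siP300 2, at 2.09%, lay above every siControl library. In pooled embryos, fewer cells of a type and less RNA per cell cannot be told apart.

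**Figure D1:**
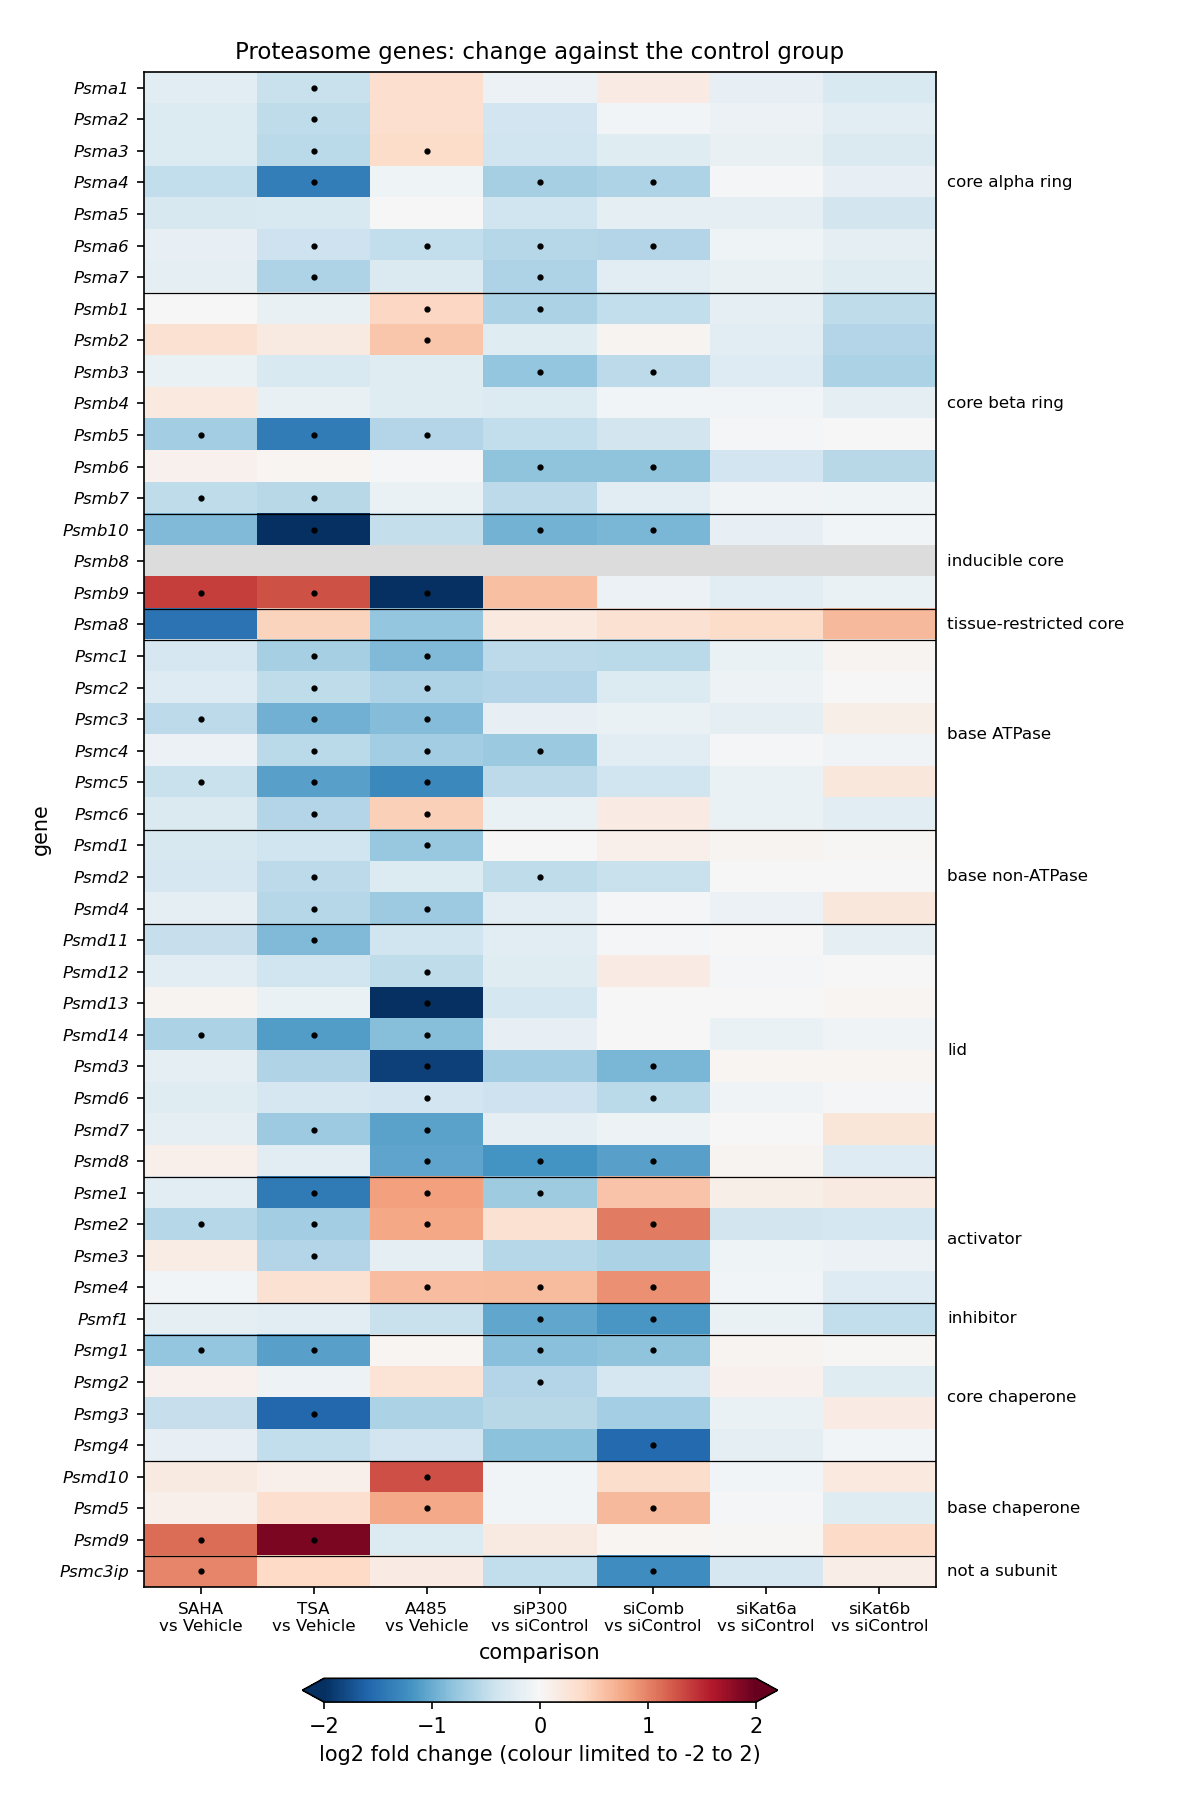
Log2 fold change of each tested proteasome gene (rows, ordered by role) against the control group (columns), where colour is limited to the range from -2 to 2 and a dot marks an adjusted p under 0.05. Psmb8 is grey because it was not tested in the inhibitor family and had 2 counts in siControl. With A485 the dots in the base and lid rows are blue except at Psmc6, and the 2 columns at the right hold no dot.

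With A485 most genes of the regulatory particle fell, while most of the core had no call. Of the 17 base and lid genes, 14 fell and 1 rose, with a median log2 change of -0.76. Of the 14 constitutive core genes, 2 fell and 3 rose, with a median of -0.06, the same as that of all genes. Over all 47 members tested, 9 rose and 17 fell, while 45.5% of all genes were called, 21.4% as higher and 24.2% as lower. Among genes at a mean of 50 CPM or more, the level of most subunits, 35.0% were lower and the median was -0.07. Leaving out A485 1 gave 10 base and lid genes lower, and 10 of the 15 base and lid calls held under every alternative run. The core was less settled, since 1 of its 5 calls, that of Psmb2, did so. The number of core genes higher, 3 of 14, became 1 without Vehicle 1, Vehicle 2, Vehicle 3 or A485 3, and 5 without A485 1.

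Among the base and lid genes, Psmd13 had the lowest log2 value with A485. This lid scaffold subunit was at 141, 125 and 143 CPM in Vehicle and at 11.2, 22.1 and 16.2 CPM in A485. No A485 library came near a Vehicle library, and the fall was 3.05 on the log2 scale (SE 0.22, adjusted p = 1.33e-07). In TSA the same gene was at 107, 140 and 125 CPM, which overlapped Vehicle (log2 -0.13, SE 0.20, adjusted p = 0.590). Psmd13 lies at chr7:140881968-140898643 and shares 342 exonic bases, 10.1% of its length, with Sirt3 on the opposite strand. Sirt3 was at 13.1 to 17.0 CPM in Vehicle and 11.4 to 17.0 CPM in A485.

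Psmd3, another lid scaffold, was at 96.1, 151 and 115 CPM in Vehicle and at 50.6, 25.0 and 23.9 CPM in A485. The groups did not overlap, and the fall was 1.86 on the log2 scale (SE 0.28, adjusted p = 8.92e-05). Psmd7, the structural partner of Psmd14, fell by 1.07 (SE 0.15, adjusted p = 5.58e-05), from 594 to 814 CPM in Vehicle to 328 to 354 CPM. Psmd8 fell by 1.05 (SE 0.16, adjusted p = 1.13e-04) and Psmd14 by 0.85 (SE 0.19, adjusted p = 0.00208). Psmd11 was the one lid gene of 8 without a call, at log2 -0.40 (adjusted p = 0.0788). The call of Psmd12 (log2 -0.51) was lost without Vehicle 3 or A485 1 (adjusted p = 0.103 and 0.198). That of Psmd6 (log2 -0.38, adjusted p = 0.0455) was lost without Vehicle 1, 2 or 3 or A485 1 or 2 (adjusted p = 0.0501 to 0.300) and by DESeq2 (0.0535).

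In the base, Psmc5 was at 668, 630 and 829 CPM in Vehicle and at 256, 280 and 331 CPM in A485. Every A485 library lay below every Vehicle library, and this ATPase fell by 1.29 on the log2 scale (SE 0.16, adjusted p = 1.84e-05). Psmc1, Psmc3 and Psmc4, further ATPases of the same ring, fell by 0.88, 0.87 and 0.70, and Psmd4, the ubiquitin receptor, by 0.73. Psmc6 went the other way among the 6 ATPases, with 677, 634 and 765 CPM in Vehicle and 657, 1091 and 1155 CPM in A485. Its groups overlapped through A485 1, and the call (log2 0.48, adjusted p = 0.0445) was lost without Vehicle 1, 2 or 3, A485 2 or A485 3 (adjusted p = 0.0510 to 0.188).

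In the core, Psmb2 rose by 0.55 (SE 0.13, adjusted p = 0.00344), from 827, 707 and 846 CPM to 1065, 1204 and 1221 CPM, with no overlap. Psmb5, a cutting subunit, was at 232, 247 and 247 CPM in Vehicle and at 155, 133 and 199 CPM in A485. It fell by 0.58 (SE 0.16, adjusted p = 0.0107), a call lost without A485 1 (adjusted p = 0.0610).

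The ratio of the summed core level to the summed base and lid level is free of the scaling between libraries. It was 1.14, 1.10 and 1.05 in Vehicle, 1.30, 1.17 and 1.17 in SAHA, 1.43, 1.28 and 1.25 in TSA, and 1.96, 1.64 and 1.69 in A485. Every A485 library lay above every other library of the family, and every Vehicle library below. The A485 libraries kept a summed core level of 10487 to 12915 CPM, against 10424 to 11902 CPM in Vehicle, while their base and lid sum was 5352 to 7644 CPM, against 9473 to 11344 CPM. The lower sum of morula markers in A485 moved with these values, and its part in them was not tested. In the siRNA family the ratio had a wide spread, 1.52, 1.66 and 1.99 in siControl and 1.20, 1.59 and 1.31 in siKat6b, and siControl overlapped siP300, siKat6a, siKat6b and siComb. It is a description of chosen members and carries no p.

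**Figure D2:**
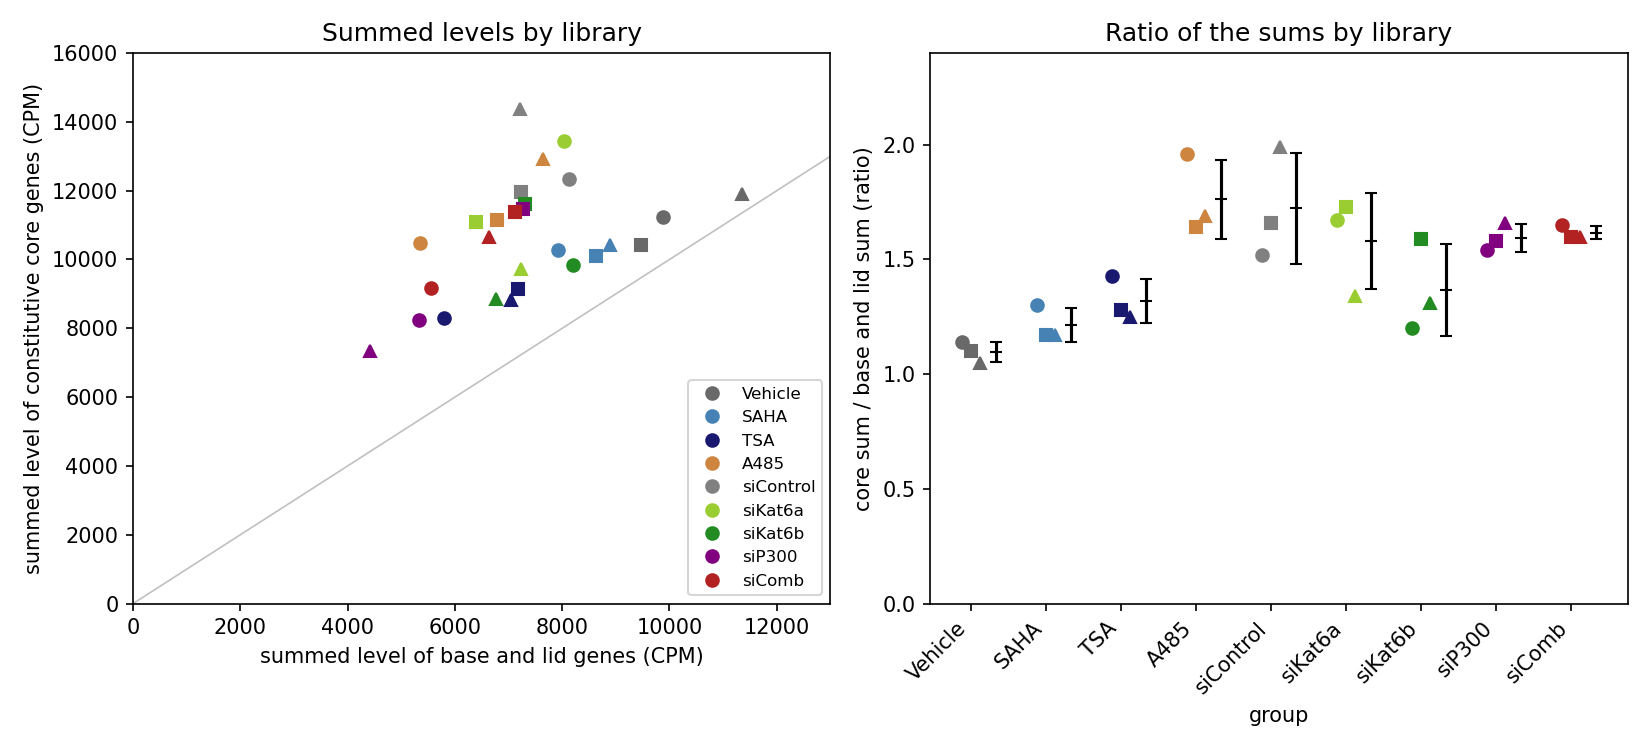
Left, summed CPM of the 14 constitutive core genes against that of the 17 base and lid genes, 1 point per library, with circles, squares and triangles for replicates 1, 2 and 3 and a line of equality; right, the ratio of these sums by group, with the mean and SD of 3 libraries beside the points. The 3 A485 libraries lie at ratios of 1.64 to 1.96 and the 3 Vehicle libraries at 1.05 to 1.14.

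With TSA core and regulatory genes both fell. Of 47 members tested, 25 fell and 2, Psmb9 and Psmd9, rose, with a median log2 change of -0.51 against 0.08 for all genes and -0.29 for genes at a mean of 50 CPM or more. All genes were called in 58.1% of cases, 31.6% as higher and 26.6% as lower, and of those at 50 CPM or more, 43.4% were lower. Of the 17 base and lid genes 11 fell: 6 of 6 base ATPases, 2 of 3 other base subunits and 3 of 8 lid genes. Of the 14 constitutive core genes 8 fell, 6 of 7 in the alpha ring and 2 of 7 in the beta ring. The lid and beta-ring shares, 37.5% and 28.6%, lay below the 43.4% of genes at 50 CPM or more. The beta-ring median was -0.15. In all, 19 of the 27 calls held under every alternative. With DESeq2 size factors the median of all genes moved from 0.08 to 0.22 and the members' split was 3 higher and 19 lower.

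Psmb5 fell with both deacetylase inhibitors. It was at 232, 247 and 247 CPM in Vehicle, at 157, 142 and 147 CPM in SAHA and at 85.7, 107 and 81.5 CPM in TSA. The 3 groups were fully separate, with a fall of 1.40 with TSA (SE 0.17, adjusted p = 8.38e-06) and of 0.70 with SAHA (SE 0.16, adjusted p = 0.00466). The difference between TSA and SAHA was itself called, at log2 -0.70 (SE 0.17, adjusted p = 0.00855).

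Psma4, an alpha-ring subunit, was at 798, 756 and 787 CPM in Vehicle, 552, 578 and 540 CPM in SAHA and 252, 409 and 242 CPM in TSA. The groups again did not overlap. The fall with TSA was 1.38 (SE 0.19, adjusted p = 3.18e-05) and the difference from SAHA was log2 -0.89 (SE 0.19, adjusted p = 0.00472). Psma4 shares 114 exonic bases, 4.81% of its length, with AY074887 on the opposite strand. AY074887 was at 87.1 to 91.3 CPM in Vehicle, 61.4 to 69.0 in SAHA and 27.5 to 48.4 in TSA, and its part in the Psma4 values was not tested. In the regulatory particle, Psmd14 fell by 1.11 (SE 0.19, adjusted p = 1.92e-04), Psmc5 by 1.09 and Psmc3 by 0.96. Psmd14 was at 525 to 640 CPM in Vehicle and 216 to 297 CPM in TSA. Psmb6, which also cuts substrates, had no call with TSA or SAHA, at 1274, 1128 and 1373 CPM in Vehicle and 1217, 1426 and 1247 CPM in TSA.

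With SAHA, an inhibitor of the same enzymes, 3 of 47 members rose and 7 fell, while 34.2% of all genes were called, 20.2% as higher and 14.0% as lower, with 21.2% lower among genes at a mean of 50 CPM or more. The share called among the members, 21.3%, was below that of all genes. The members' median was -0.21 against 0.06 for all genes and -0.05 for those at 50 CPM or more. The count rested on single libraries, with 6 members called without Vehicle 3 and 5 without SAHA 1. The 5 calls that held under every alternative were those of Psmb5, Psmg1, Psmb9, Psmd9 and Psmc3ip, the last at log2 0.98 (SE 0.18, adjusted p = 0.00108). Between TSA and SAHA, 10 members were lower with TSA and 1 higher, while 21.8% of all genes were called, 9.79% as higher. The count of 11 fell to 5 without SAHA 2 or TSA 1 and to 7 without SAHA 3 or TSA 3 or with DESeq2 size factors, which moved the median of all genes from 0.05 to 0.16. The compounds differ in dose as well as in structure, and the comparisons of SAHA, TSA and A485 with Vehicle share the Vehicle libraries.

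**Figure D3:**
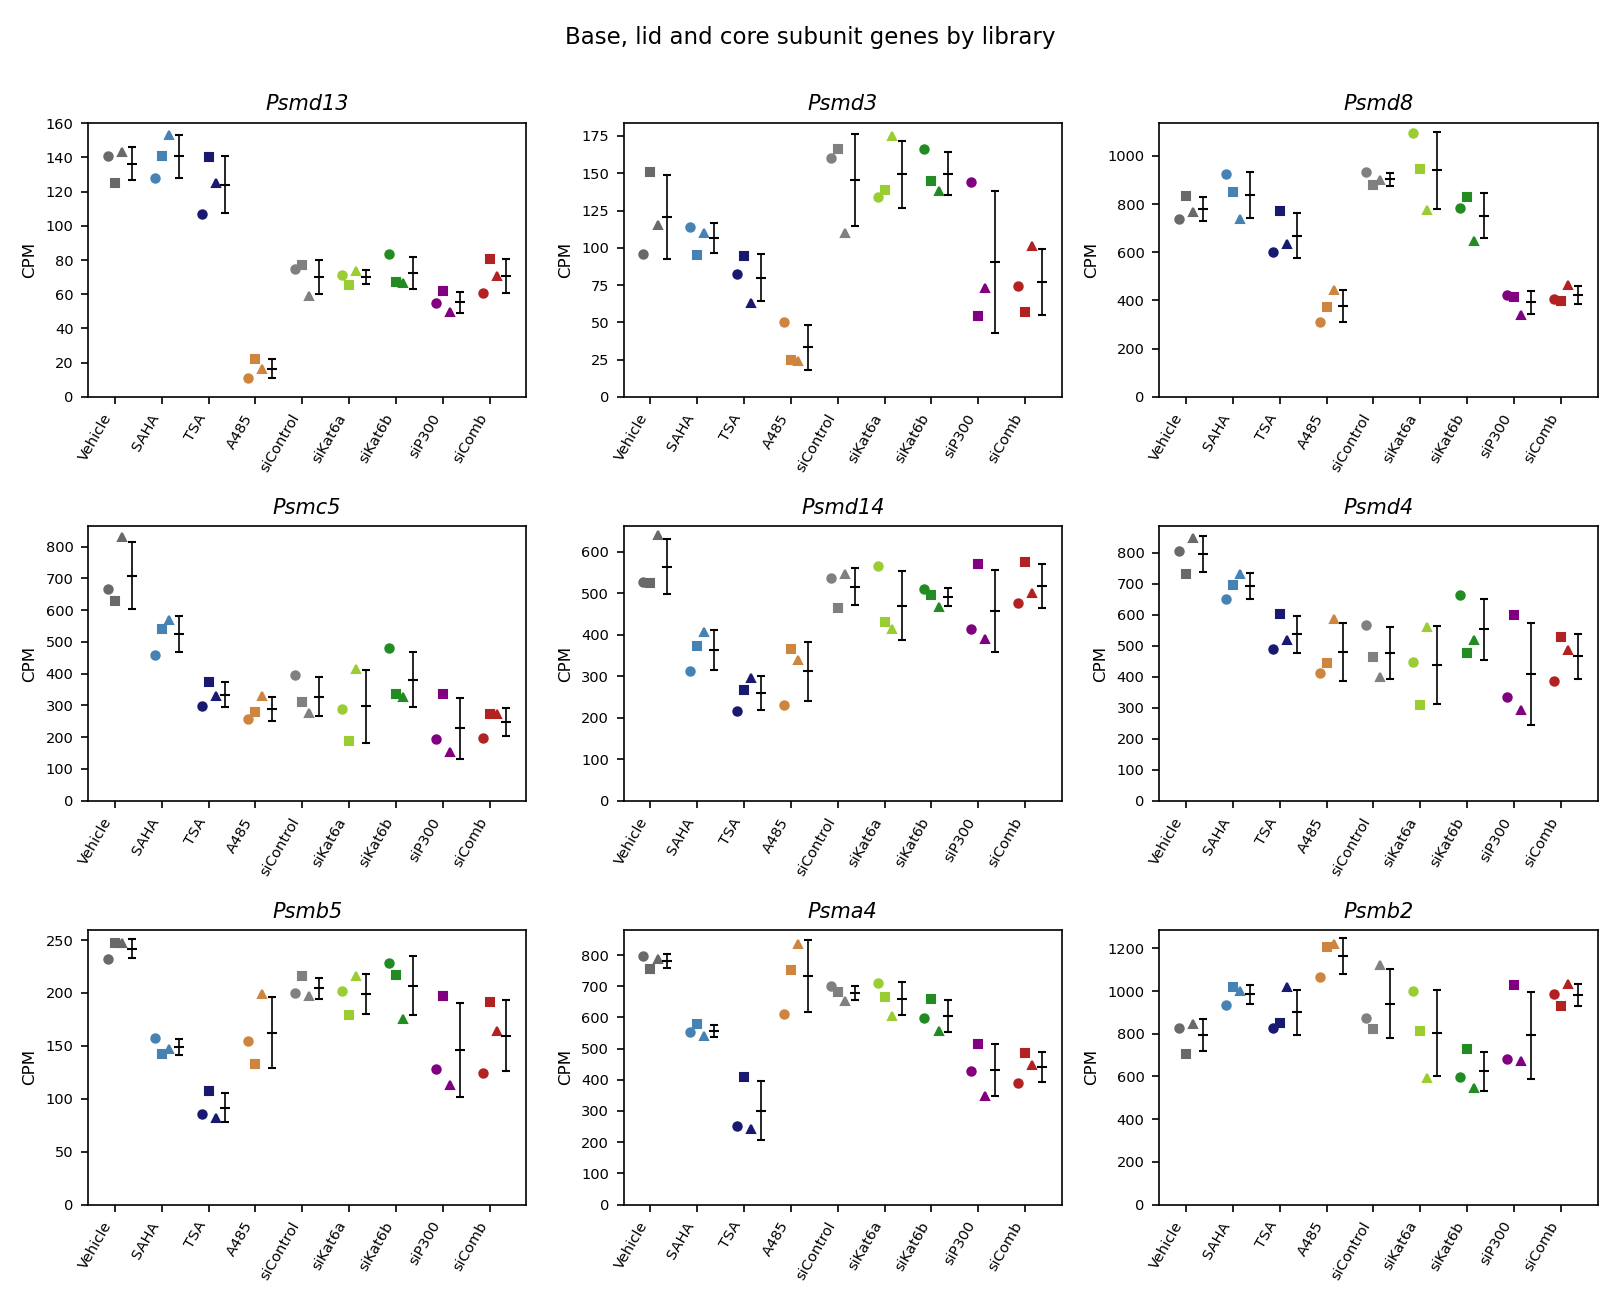
CPM of 6 base and lid genes and 3 core genes by group, with 1 point per library and the mean and SD of 3 libraries beside them. Psmd13 is at 11.2 to 22.1 CPM in A485 and at or above 49.6 CPM in every other group, and Psmd8 is at 310 to 465 CPM in A485, siP300 and siComb.

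The assembly chaperones moved in different directions. Psmd9, a chaperone of the base, was at 68.1, 72.8 and 83.7 CPM in Vehicle, 172, 126 and 190 CPM in SAHA, and 260, 309 and 266 CPM in TSA. It rose by 1.12 with SAHA (SE 0.17, adjusted p = 1.77e-04) and by 1.89 with TSA (SE 0.17, adjusted p = 6.29e-07), and TSA lay above SAHA by 0.77 (SE 0.17, adjusted p = 0.00484). The groups did not overlap. With A485 it was at 60.1 to 65.7 CPM (log2 -0.27, adjusted p = 0.201). The GENCODE model of Psmd9, chr5:123169413-123250131, shares 1849 exonic bases, 25.5% of its length, with the opposite-strand transcript Gm26745, which was not analysed here.

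Psmd10, also a base chaperone, was at 58.3, 61.6 and 69.3 CPM in Vehicle and at 128, 170 and 166 CPM in A485. It rose by 1.29 with A485 (SE 0.17, adjusted p = 2.37e-05), without overlap, and had no call with SAHA or TSA. Psmd5, the third base chaperone, rose by 0.76 with A485 (adjusted p = 0.0159), a call lost without Vehicle 2, A485 2 or A485 3 (adjusted p = 0.0727, 0.0610 and 0.0741).

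Psmg1 pairs with Psmg2 to build the alpha ring. It was at 106, 99.4 and 101 CPM in Vehicle, 62.3, 54.9 and 61.6 CPM in SAHA, 43.2, 47.1 and 53.8 CPM in TSA, and 99.3, 100 and 116 CPM in A485. It fell by 0.78 with SAHA (SE 0.15, adjusted p = 0.00103) and by 1.09 with TSA (SE 0.15, adjusted p = 2.58e-05), while A485 overlapped Vehicle. Psmg2 had no call against Vehicle. Psmg3 fell with TSA by 1.57 (SE 0.56, adjusted p = 0.0273) from 50 to 54 counts to 5 to 21 counts, a call lost without Vehicle 1 or without Vehicle 3, TSA 1 or TSA 3 (adjusted p = 0.0587, 0.0989 and 0.0746 for the last 3).

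**Figure D4:**
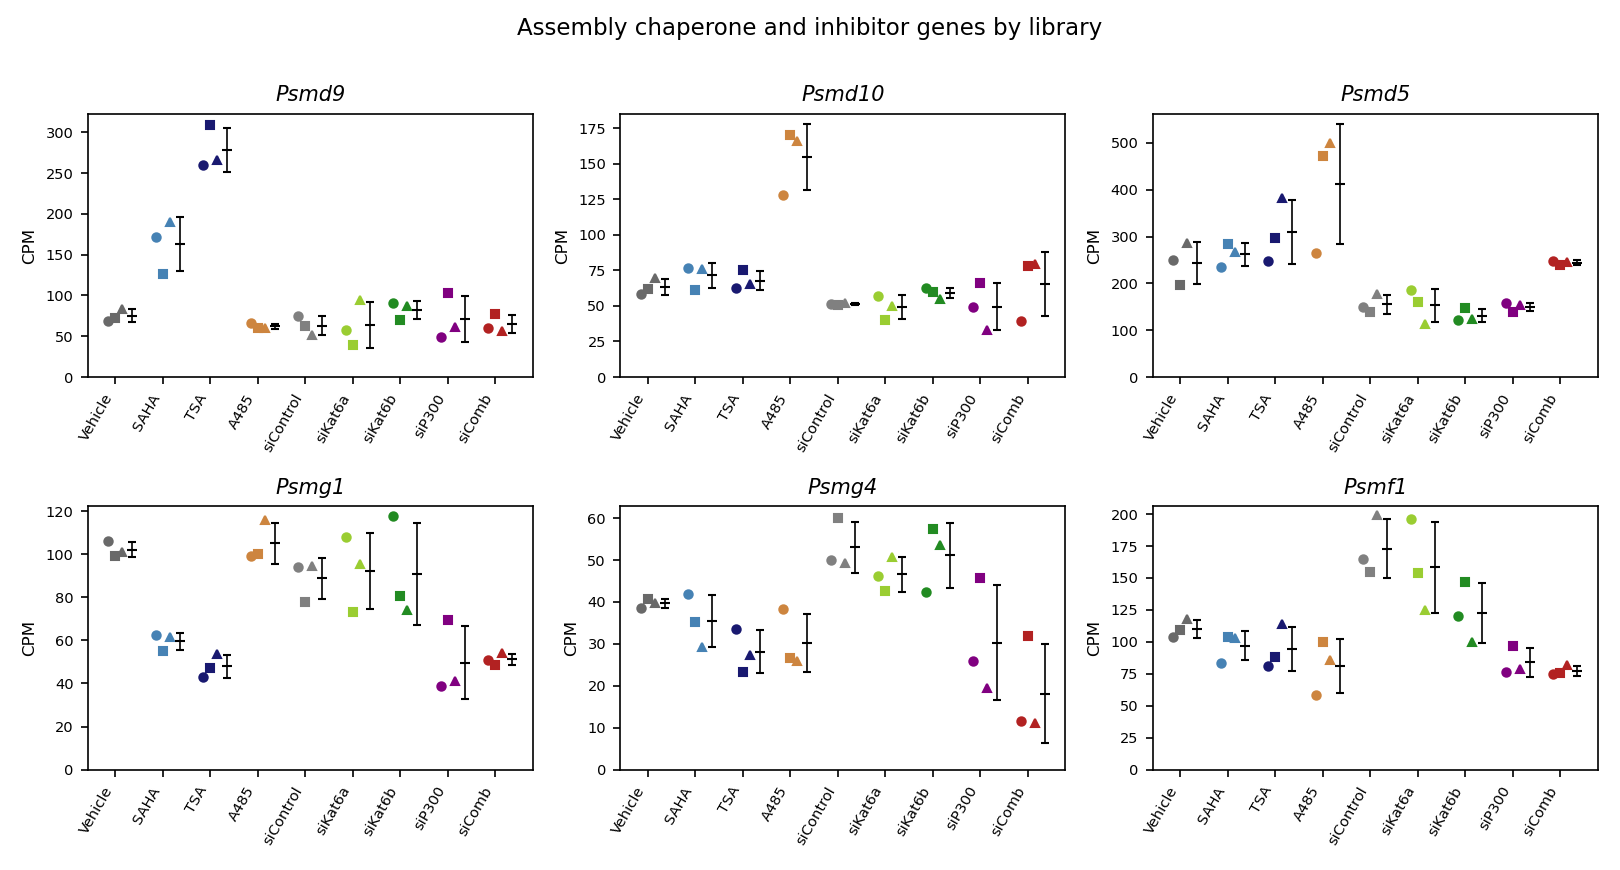
CPM of 3 base chaperone genes, 2 core chaperone genes and the inhibitor gene Psmf1 by group, with 1 point per library and the mean and SD of 3 libraries beside them. Psmd9 is at 126 CPM or above in SAHA and TSA, Psmd10 at 128 CPM or above in A485, and Psmf1 at 97.0 CPM or below in siP300 and siComb.

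Psmb9 and Psmb10, which both belong to the immunoproteasome, did not move together. Psmb9 was at 3.51, 13.1 and 6.16 CPM in Vehicle, 19.1, 21.3 and 19.3 CPM in SAHA, 19.1, 18.6 and 17.8 CPM in TSA, and 0.473, 0.543 and 0.687 CPM in A485. The last are 6, 6 and 8 counts. Psmb9 rose by 1.39 with SAHA (SE 0.36, adjusted p = 0.00893) and by 1.28 with TSA (SE 0.36, adjusted p = 0.00773), and fell by 3.72 with A485 (SE 0.46, adjusted p = 1.75e-05). No SAHA, TSA or A485 library overlapped Vehicle, whose second library was the highest of its group. Blood and immune markers followed Psmb9 only in part. The 8 such genes summed to 14.0 to 32.8 CPM in Vehicle, 31.7 to 63.8 in SAHA, 67.8 to 142 in TSA and 12.8 to 17.9 in A485. The sums of SAHA and A485 overlapped Vehicle, while Psmb9 did not. Every TSA sum lay above every SAHA sum, while Psmb9 was no higher in TSA than in SAHA. The part of these markers in the result was not tested. The higher sums lay mostly in Cd74 (4.52 to 11.8 CPM in Vehicle, 17.4 to 48.6 in SAHA, 32.2 to 97.0 in TSA) and Hba-a1 (0 to 0.192, 3.18 to 4.18 and 17.1 to 39.5 CPM). Laptm5 went the other way, at 2.12 to 10.5 CPM in Vehicle, 0.682 to 1.82 in SAHA and 0.785 to 2.07 in TSA. In A485 Cd74 was at 0.172 to 0.995 CPM. Cd74 thus lay apart from Vehicle in the direction of Psmb9 in SAHA, TSA and A485. Hba-a1 in A485, at 0.687 to 2.21 CPM, lay above Vehicle, unlike Psmb9. Cd52 was at 7.12 to 10.1 CPM in Vehicle and, without overlap, 16.2 to 16.8 in TSA. In SAHA (8.55 to 12.7 CPM) and A485 (6.46 to 13.3 CPM) Cd52 overlapped Vehicle. Ptprc, the pan-leukocyte marker, was at most 0.393 CPM in these groups, Tyrobp at most 0.785 CPM, and Hbb-bs at 0. Psmb9 lies at chr17:34181987-34187764 and shares 212 exonic bases, 5.79% of its length, with Tap1. Tap1 was at 2.95 to 3.98 CPM in Vehicle, 4.40 to 7.28 in SAHA, 4.19 to 7.75 in TSA and 0.158 to 2.17 in A485. Its levels thus lay apart from Vehicle in the same directions as those of Psmb9, and its part in the Psmb9 values was not tested.

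Psmb10 was at 12.2, 20.3 and 14.6 CPM in Vehicle and at 3.28, 5.50 and 2.33 CPM in TSA. It fell by 2.08 with TSA (SE 0.36, adjusted p = 2.07e-04), with no overlap. With SAHA it was at 7.69 to 9.10 CPM, below every Vehicle library, without a call (log2 -0.88, adjusted p = 0.0551). Psmb8 was at 0 counts in Vehicle and SAHA, at 2 counts over the A485 libraries and at 4 over the TSA libraries. Psma8 was below 4 CPM in each library of this family, with no call.

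The activators are caps that open the core without ATP. Of the 4 tested, Psme1 and Psme2 were lower with TSA than with A485, and Psme3 and Psme4 had no call between them. Psme1, one subunit of the interferon-inducible cap, was at 94.4, 78.5 and 80.5 CPM in Vehicle, 154, 151 and 141 CPM in A485, and 25.4, 45.3 and 23.9 CPM in TSA. It rose by 0.82 with A485 (SE 0.21, adjusted p = 0.00567) and fell by 1.42 with TSA (SE 0.22, adjusted p = 7.37e-05). The difference between TSA and A485 was log2 -2.24 (SE 0.22, adjusted p = 1.07e-06), with no overlap among the 3 groups. Psme2, its partner, rose by 0.78 with A485 (SE 0.20, adjusted p = 0.00539) and fell by 0.69 with TSA (SE 0.20, adjusted p = 0.00860), a call lost without TSA 2 (adjusted p = 0.0504). Psme3, the nuclear cap, fell with TSA (log2 -0.58, adjusted p = 0.0257), a call lost without Vehicle 2 or 3 or TSA 1 or 3 (0.0521 to 0.0946). Psme4, the large single-chain cap, rose by 0.61 with A485 (adjusted p = 0.0269), with overlap and with the call lost without Vehicle 2 or 3 or A485 1 (adjusted p = 0.114, 0.0835 and 0.0701). The inhibitor Psmf1 had no call in this family.

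**Figure D5:**
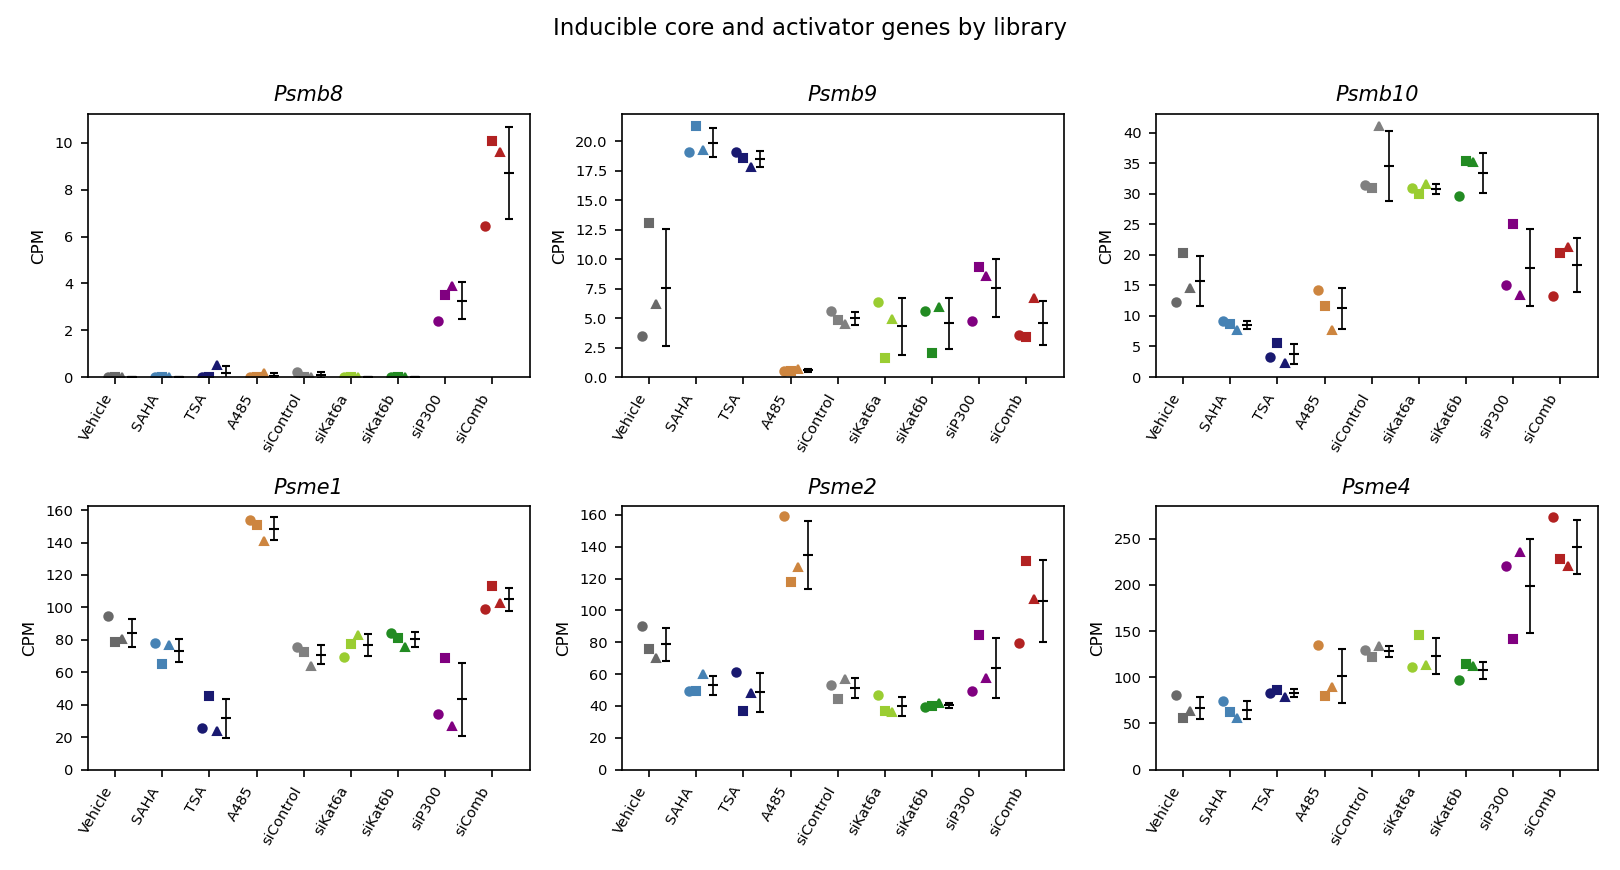
CPM of the 3 inducible core genes and of 3 activator genes by group, with 1 point per library and the mean and SD of 3 libraries beside them. Psmb8 is at 2.39 CPM or above in the 6 siP300 and siComb libraries and at or below 0.517 CPM in the other 21, and Psmb9 is below 1 CPM in A485.

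Set directly against each other, TSA and A485 differed in 22 of 47 members, 5 higher and 17 lower with TSA, while 63.5% of all genes were called, 36.1% as higher and 27.4% as lower. Of the 14 constitutive core genes 9 were lower with TSA, while of the 17 base and lid genes 3 were higher and 2 lower. The 3 higher were Psmd13 (log2 2.91, SE 0.22, adjusted p = 9.00e-08), Psmd3 (1.27, SE 0.27, adjusted p = 0.00106) and Psmd8 (0.83, SE 0.16, adjusted p = 4.32e-04). With DESeq2 size factors the median of all genes moved from 0.27 to 0.39 and the split of 5 and 17 became 6 and 12.

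In the siRNA family, the libraries labelled siP300 had 14 members lower and 2 higher than siControl of 48 tested, while 35.4% of all genes were called, 19.7% as higher and 15.7% as lower. Among genes at a mean of 50 CPM or more, 40.2% were lower. The median log2 change of the members was -0.45, that of all genes 0.12 and that of genes at 50 CPM or more -0.38. Of the 14 constitutive core genes 6 fell, and of the 17 base and lid genes 3. The count depended on single libraries: 26 members were called without siP300 2, the library that stood apart, and 9 without siP300 3, and the core genes lower became 11 and 3. Without siControl 3 the core genes lower were also 3. Without the 4 libraries high in MERVL-int, 27 members were called, 2 higher and 25 lower. With library totals alone the median of all genes moved from 0.12 to 0.45 and the split from 2 higher and 14 lower to 3 and 7.

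Psmd8, a lid subunit, fell in both siP300 and siComb. It was at 931, 877 and 901 CPM in siControl, at 424, 413 and 339 CPM in the libraries labelled siP300 and at 406, 399 and 465 CPM in siComb. The groups did not overlap, and Psmd8 fell by 1.20 in siP300 (SE 0.16, adjusted p = 4.81e-05) and by 1.09 in siComb (SE 0.16, adjusted p = 7.26e-05). In siKat6a it was at 1094, 947 and 776 CPM. Psmf1, which inhibits the core, was at 165, 155 and 199 CPM in siControl, 76.2, 97.0 and 79.0 CPM in siP300 and 74.8, 75.7 and 81.7 CPM in siComb. It fell by 1.04 (SE 0.19, adjusted p = 6.30e-04) and by 1.16 (SE 0.19, adjusted p = 2.15e-04), again with no overlap.

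Psma4 fell by 0.66 in siP300 (SE 0.16, adjusted p = 0.00432) and by 0.62 in siComb (SE 0.16, adjusted p = 0.00562), from 654 to 700 CPM to 348 to 515 and 391 to 487 CPM. AY074887, which overlaps Psma4, was at 60.2 to 71.0 CPM in siControl, 31.7 to 56.2 in siP300 and 42.4 to 49.7 in siComb. Psmb10 fell by 0.95 (SE 0.25, adjusted p = 0.00703) and by 0.92 (SE 0.25, adjusted p = 0.00824), from 31.0 to 41.1 CPM in siControl. Psmb6 was at 1485, 1435 and 1933 CPM in siControl, 788, 1299 and 700 CPM in siP300 and 783, 978 and 1035 CPM in siComb. It fell by 0.80 in both, but its calls were lost without siControl 3 (adjusted p = 0.0615 and 0.0617), without siP300 3 (0.0580) and without siComb 1 (0.0569).

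SiComb had 12 members lower and 4 higher of 48, while 36.7% of all genes were called, 19.6% as higher and 17.1% as lower. Among genes at a mean of 50 CPM or more, 36.3% were lower. The median was -0.23 against 0.09 for all genes and -0.28 for those at 50 CPM or more. Core genes lower numbered 4 of 14 and base and lid genes lower 3 of 17. Without siComb 1, 10 members were called and 1 core gene was lower, and without siControl 3 also 1. With library totals alone the members' median moved from -0.23 to 0.03 and that of all genes from 0.09 to 0.35. The split became 8 higher and 7 lower, and 0 of the main calls changed sign. The calls of Psmd8, Psmf1, Psma4, Psmb10 and Psmg4 held as lower in every alternative, and those of Psmd5, Psme2 and Psme4 as higher.

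Psmb8 was detected mainly in siP300 and siComb. Its counts were 2, 0 and 0 in siControl, 26, 34 and 58 in the libraries labelled siP300 and 72, 102 and 100 in siComb, and 0 in the 6 siKat6a and siKat6b libraries. Over the summed counts, siP300 was 47.6 times siControl (95% exact interval 12.9 to 398) and siComb 124 times (33.9 to 1027). These intervals cover counting error only. Of the counts above 0 in the table, 84.5% are even, so a count may not be 1 independent molecule and the intervals may be too narrow. Psmb8 passed the filter on low counts only through siP300 and siComb, so its place among the genes called higher there, 1 of 2 and 1 of 4, is a description. Between siComb and siP300 it had no call, at log2 1.41 (SE 0.58, adjusted p = 0.307).

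Psmb8 lies at chr17:34197721-34201454 and shares 498 exonic bases, 14.7% of its length, with the antisense transcript Gm20496. Gm20496 was at 0 to 0.646 CPM in siControl, 0.920 to 4.76 in siP300 and 4.61 to 6.95 in siComb. Markers of blood and immune cells followed Psmb8 in part: the 8 genes summed to 36.3 to 48.1 CPM in siControl, 156 to 268 in siP300 and 154 to 187 in siComb. The sums of siP300 and siComb overlapped, while every siComb library held more Psmb8 than any siP300 library. The part of these markers in the result was not tested. The difference lay mostly in Cd74 (4.52 to 13.0 CPM in siControl, 51.1 to 118 in siP300, 97.8 to 105 in siComb) and Hba-a1 (0.610 to 1.27, 30.5 to 111 and 23.3 to 65.0 CPM). Laptm5 was at 15.8 to 18.5 CPM in siControl, 17.8 to 33.3 in siP300 and, the other way, 4.37 to 8.68 in siComb. Cd52 overlapped siControl (13.2 to 17.1 CPM) in siP300 (15.5 to 18.3) and siComb (14.8 to 17.8). Ptprc was at 0 in siP300 and at most 0.0895 CPM in siComb, and Tyrobp and Hbb-bs were at 0 in both. Psmb9, the neighbour of Psmb8, had no call, at 4.47 to 5.60 CPM in siControl, 4.79 to 9.32 in siP300 and 3.38 to 6.73 in siComb.

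Among the activators, Psme2 was at 52.8, 44.5 and 56.7 CPM in siControl and at 79.7, 131 and 107 CPM in siComb, and rose by 1.04 (SE 0.22, adjusted p = 0.00142). Psme4 was at 129, 122 and 134 CPM in siControl, 220, 141 and 236 CPM in siP300 and 274, 228 and 221 CPM in siComb. No siP300 or siComb library overlapped siControl, and Psme4 rose by 0.63 (SE 0.19, adjusted p = 0.0153) and by 0.91 (SE 0.19, adjusted p = 0.00133). The siP300 call was lost without siControl 2 (adjusted p = 0.0603), siP300 1 (0.0502) or siP300 3 (0.0766). In siP300 Psme1 had a call against siControl (log2 -0.71, adjusted p = 0.0345), with overlap through siP300 2, which was lost without siControl 1, 2 or 3 or siP300 1 or 3 (adjusted p = 0.0507 to 0.150). Psme1 was the one member called between siComb and siP300, where 0.798% of all genes were called, 0.516% as higher. It was at 34.1, 69.0 and 27.1 CPM in siP300 and at 98.8, 113 and 103 CPM in siComb (log2 1.28, SE 0.25, adjusted p = 0.0344). That call was lost without siP300 1 or 3 or any siComb library (adjusted p = 0.0520 to 0.0746).

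Of the chaperones, Psmg4 fell by 1.55 in siComb (SE 0.35, adjusted p = 0.00268), from 49.2 to 60.1 CPM to 11.1 to 31.8 CPM, with no overlap. In siP300 it was at 25.8, 45.6 and 19.4 CPM, without a call (log2 -0.82, adjusted p = 0.0746). Psmg1 fell by 0.84 in siP300 (SE 0.23, adjusted p = 0.0104) and by 0.80 in siComb (SE 0.23, adjusted p = 0.0132), without overlap, and with library totals alone both calls were lost (adjusted p = 0.0558 and 0.0567). Psmg2 fell by 0.59 in siP300 (adjusted p = 0.0248), a call lost without siControl 1 or 3 or siP300 1 or 3 (adjusted p = 0.0601 to 0.0921). Psmd5 rose by 0.65 in siComb (SE 0.17, adjusted p = 0.00745), from 139 to 178 CPM to 239 to 248 CPM. Outside the proteasome, Psmc3ip fell by 1.24 in siComb (SE 0.36, adjusted p = 0.0128), a call lost without siComb 1 (adjusted p = 0.0593). The comparisons of siP300 and siComb share the siControl libraries.

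SiKat6a and siKat6b called 0 of 48 members by edgeR and by DESeq2. In siKat6a, 0 members were at an unadjusted p under 0.05, where 2.14% of all genes were, and 0% of all genes were called. In siKat6b, 5 members were, the core genes Psmb1, Psmb2, Psmb3 and Psmb6 and the inhibitor Psmf1, all lower. Of all genes 10.4% were at that level, near the members' share, and 0.0209% were called. The widest of these was Psmb3, a structural beta subunit, at log2 -0.63 (SE 0.19, adjusted p = 0.223). For Psmb6 the 95% interval in siKat6a was -0.83 to 0.06, which leaves room for a fall of that size.

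The other genes of the pathway came from a list of 37 ubiquitin, shuttle and proteasome-associated genes, of which 34 were tested in each family. With TSA 14 fell and 4 rose (52.9% called, 58.1% of all genes), with SAHA 12 fell and 3 rose (44.1%, 34.2% of all genes), and with A485 8 fell and 8 rose (47.1%, 45.5% of all genes). In siP300 9 fell and 3 rose (35.3%, 35.4% of all genes), in siComb 9 fell and 5 rose (41.2%, 36.7% of all genes), and in siKat6a and siKat6b 0 were called. Except with SAHA, these shares, which count both directions, lie near those of all genes. The share lower was 41.2% with TSA (26.6% of all genes), 35.3% with SAHA (14.0%) and 23.5% with A485 (24.2%). It was 26.5% in siP300 (15.7% of all genes) and 26.5% in siComb (17.1%). Of genes at a mean of 50 CPM or more, 43.4% were lower with TSA, 21.2% with SAHA and 35.0% with A485. In siP300 and siComb 40.2% and 36.3% of such genes were lower. Against these, just the share with SAHA was higher in the list, which was not matched to that level. Adrm1, the ubiquitin receptor that docks on the base, fell by 2.21 with A485 (SE 0.20, adjusted p = 9.47e-07) and by 1.58 with TSA (SE 0.19, adjusted p = 1.09e-05). Zfand2a, a stress-induced partner of the proteasome, rose by 2.97 with TSA (SE 0.29, adjusted p = 1.35e-06) and fell by 2.14 with A485 (SE 0.30, adjusted p = 5.46e-05). Ube3a, a ubiquitin ligase, fell by 2.32 with TSA (adjusted p = 4.36e-07) and rose by 1.08 with A485 (adjusted p = 3.32e-04).

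Pomp, which matures the core, was at 657, 651 and 686 CPM in Vehicle and at 547, 458 and 568 CPM in A485. It fell by 0.34 with A485 (SE 0.12, adjusted p = 0.0369), by 0.70 in siP300 (SE 0.18, adjusted p = 0.00637) and by 0.73 in siComb (SE 0.18, adjusted p = 0.00413). Sem1, a small lid subunit outside the Psm names, rose by 0.83 with A485 (SE 0.14, adjusted p = 3.13e-04). Nfe2l1, the transcription factor of the proteasome genes, had no call against a control, at 12.7, 16.5 and 16.0 CPM in Vehicle and 12.5, 9.95 and 7.91 CPM in A485.

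A list of 12 antigen presentation and interferon genes had 7 members tested with inhibitors and 10 with siRNAs. In siP300 7 rose (70.0% of those tested, 35.4% of all genes), and in siComb 8 rose and 1, Tap2, fell (90.0%, 36.7% of all genes). With TSA 4 rose (57.1%, 58.1% of all genes), with SAHA 3 rose (42.9%, 34.2% of all genes), and with A485 3 rose and 2 fell (71.4%, 45.5% of all genes). Irf1 and Nlrc5 were low in the controls and entered the test through the groups where they were high, so the counts that hold them are a description. B2m, the light chain of class I molecules, rose by 1.66 in siP300 (SE 0.19, adjusted p = 1.09e-05), by 1.86 in siComb (SE 0.19, adjusted p = 2.22e-06) and by 2.24 with A485 (SE 0.22, adjusted p = 2.54e-06). Tap1 rose by 1.79 in siP300 (SE 0.36, adjusted p = 0.00131) and by 1.28 in siComb (SE 0.36, adjusted p = 0.0106) and fell by 1.77 with A485 (SE 0.62, adjusted p = 0.0300). Irf1, an interferon-response transcription factor, was at a mean of 0.429 CPM in Vehicle, 18.5 CPM in TSA and 4.20 CPM in A485, and at 0.898 CPM in siControl and 7.54 CPM in siP300.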

How the data were processed

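Polyadenylated RNA of 27 embryo pools was amplified with a low-input kit, per the labels' protocols. Per the submitters' processing notes, the authors made the deposited counts, unscaled and per gene, with STAR 2.7.11a and featureCounts (Subread 2.0.6). How strand and read pairs were treated, and with which annotation, is not given in the sources used here, so reads of overlapping genes cannot be told apart. The 2 MERVL rows, at most 1.00% of a library, were left out of totals and tests.

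Sample titles gave the groups. Tests ran in edgeR 4.0.16 in R 4.3.3 (quasi-likelihood test, TMM scaling, filterByExpr with a minimum count of 10), in 1 fit for each family of 12 or 15 libraries. P-values were adjusted by Benjamini-Hochberg over all genes tested, with a threshold of 0.05, and "rose" or "fell" stands for a call. CPM use the TMM-scaled library sizes. The filter passed 47 members for inhibitors and 48 for siRNAs. Psmb11 and Psme2b passed in neither and Psmb8 just in the latter. Positions and exon lengths are those of GENCODE vM21 on GRCm38, the build the notes call mm10. Sequences are RefSeq's on GRCm38.p6. Replicate pools differed beyond sampling noise (chi-square per degree of freedom 8.35 to 48.9 over 27 pairs).

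The members and lists were chosen with earlier results of these data known. The rule for naming took, in each comparison, the inducible and tissue-restricted core genes, the activators, the inhibitor and the core chaperones, up to 4 rising and 4 falling members with the widest change, and up to 3 rising and 3 falling genes of each other list. Further members were named after their values were seen, to fill a role. Alternatives were DESeq2 size factors, library totals alone, DESeq2 1.42.0, no filter, a filter of 5 CPM, a replicate block, halved counts, all 27 libraries or just 2 groups in the fit, and leaving out each library. A fit without 4 libraries high in MERVL-int was added after seeing the data. Summaries and figures were made in Python 3.11.15 (pandas 2.3.3, SciPy 1.17.1, matplotlib 3.10.9).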

Additional observations from a re-analysis of the deposited data

How the results depend on the processing

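For the members called in a comparison, 1967 fold changes were recomputed for 129 calls: 1709 stayed past the threshold, 258 kept their direction without passing it, and 0 changed sign. Leaving out each library in turn gave 5 to 9 members called with SAHA, 20 to 27 with TSA, 20 to 23 with A485, 5 to 10 between TSA and SAHA, 9 to 26 in siP300, 10 to 15 in siComb and 0 to 2 between siComb and siP300. It gave 1 to 5 core genes higher with A485, 3 to 11 lower in siP300 and 1 to 4 lower in siComb. With DESeq2 size factors 7 members were called between TSA and SAHA. With library totals alone 10 members were called in siP300, 3 core genes were lower there and 2 in siComb. The median of all genes in siKat6b then moved from 0.02 to 0.13 and that of the members from -0.08 to 0.02. Between siComb and siP300 the DESeq2 test called 2 members, no filter 3, and a fit of these groups alone 0. Without the 4 libraries high in MERVL-int, 27 members were called in siP300 and 11 core genes were lower.

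Replicate numbers gave no steady pairing of the libraries. Over 30 pairs the correlation of their deviations lay between -0.0948 and 0.358, and in 0 comparisons was every pair over 0.1. Between TSA and A485 each library still correlated best with the same-numbered one (0.0808, 0.0114 and 0.0386). With 3 libraries a group, the check cannot show that pairing is absent. With the replicate block 30 members were called with TSA, 28 with A485, 13 with SAHA, 16 in siP300, 16 in siComb and 0 in siKat6a and siKat6b, and 1 call was lost, that of Psmd2 in siP300 (adjusted p = 0.0555). Depth limits the genes of few counts, such as Psmb8, Psmb11, Psma8 and Psmg3.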
